A study of Mus musculus with 12 samples.

Results

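The subject is how far the transcriptional response to EBF1 and the response to PAX5 differ or agree in cells that lack EBF1. It was taken as the difference of changes within a set: EBF1 minus control in the first set of arrays, less PAX5 minus control in the second set, on log2(intensity + 16). All 12 of the 12 arrays of the series enter it. They are one-colour Affymetrix arrays of total RNA from C57BL/6 pre-pro-B cells that are Ebf1-/-. The first set holds 3 arrays of cells given the control retrovirus (MigR1, GFP alone) and 3 of cells given the EBF retrovirus (Mig-EBF1). The second set holds 3 arrays of control cells (MigR1) and 3 of cells given the PAX5 retrovirus (Mig-PAX5). All groups share the Ebf1 deletion, growth on OP9 stromal cells in 4% serum with IL-7 at 5 ng/ml and both SCF and Flt3L at 10 ng/ml, and sorting for GFP after 2 days. By the labels, both factors were delivered by virus to cells with a mutated Ebf1, and the labels do not say whether replicates were separate cultures or animals. Any p-value thus reflects the variation among these arrays alone, part or all of it possibly technical.

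EBF1 and PAX5 act in sequence in early B cell development. EBF1 is an early B cell factor that opens B-lineage genes and switches on Pax5, and without it development stops at the pre-pro-B stage. PAX5 is the paired-domain factor that commits cells to the B lineage, activating signalling and antigen-presentation genes and repressing genes of other lineages. Known targets of the pair include the pre-B-cell receptor, in which the surrogate light chain (Vpreb1, Igll1) pairs with the heavy chain and signals through Cd79a and Cd79b.

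The arrays were first checked against each other. Over 12889 bright probe sets, a first-set control and the second-set control with its number differed by a robust SD of only 0.041 to 0.10 in log2. Controls with unlike numbers differed by 0.29 to 0.38, and the 6 control arrays therefore entered as 3 samples. PAX5 arrays 2 and 3 were as close, at 0.078, while the remaining pairs within groups lay at 0.21 to 0.36. They entered as a single sample, so 2 PAX5 samples stand beside 3 EBF1 samples. The EBF1 and PAX5 comparisons therefore share their controls, and in the estimate of the difference the controls serve only to remove the offset of each gene between the sets. The spread of the controls also enters the SE and p-value of each difference, while the error of the offset does not. That offset was above 1 in log2 for 1148 of 18193 genes (6.31%) and for 26 of 353 genes called below (7.37%), so an intensity was compared only within its set. Median intensity ran from 55.1 to 60.6 in the first set and from 65.3 to 68.9 in the second. Precision is limited by how few arrays there are. Of 7 progenitor markers, 6 averaged 910 or more in every group (Ptprc, Il7r, Flt3, Cd34, Cd48 and Ighm), and Kit averaged 90.6 to 302. Of 4 T cell markers, Cd3e averaged 7.5 to 11.7 and Cd3g 28.2 to 38.7, near or below the array medians, Bcl11b 51.2 to 63.1, and Cd8a 117 to 128. The Ebf1 transcript read 1886, 2477 and 1917 in EBF1 arrays and 2027, 2173 and 2148 in controls, and none of its 5 probe sets rose (EBF1 changes -0.31 to 0.021). The position of these probes relative to the deletion and to the virus is not stated, so EBF1 expression from the virus was not checked here. The second-set arrays read 12.8, 8.97 and 7.98 for Pax5 in controls and 1849, 891 and 932 with the PAX5 virus.

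The responses differed for a small share of genes, most of them with a positive change for 1 factor and a smaller or opposite change for the other. The difference passed the test (limma, Benjamini-Hochberg adjusted p under 0.05) for 353 of 18193 genes, 1.94% of those tested, with 3096 (17.0%) at unadjusted p under 0.05. In 107 (0.588%) the EBF1 change was the higher, and in 246 (1.35%) the PAX5 change was. Among the 107, the EBF1 change was above 1 in 59 and the PAX5 change below -1 in 5. Among the 246, the PAX5 change was above 1 in 138 and the EBF1 change below -1 in 23. Of the 353 genes, 74 of the first direction and 129 of the second passed in neither comparison with controls alone, and in a fit with the replicate number as a block these were 201 of 252 and 212 of 370. In all 353 the 3 EBF1 arrays and the 3 PAX5 arrays, each set against its own controls, did not overlap, which also held for 16.1% of all genes with EBF1 above and 14.2% with PAX5 above. The 353 were chosen by a test on these same arrays, so their separation follows largely from that choice and adds no support. In bulk RNA of sorted cells, a smaller share of a cell type and less RNA per cell cannot be told apart.

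The count depends on how arrays are counted and on single arrays. The replicate block gave 622 genes, 252 with the higher EBF1 change and 370 with the higher PAX5 change, 316 of them among the 353. Counting all 12 arrays separately gave 156 genes, all among the 353. Leaving out PAX5 array 1 gave 55, in a fit that gives the single PAX5 sample left the spread of the other groups. Leaving out PAX5 arrays 2 and 3 gave 167, EBF1 array 1 gave 167, EBF1 array 2 gave 154 and EBF1 array 3 gave 575. Leaving out a control pair gave 290 to 349.

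**Figure D1:**
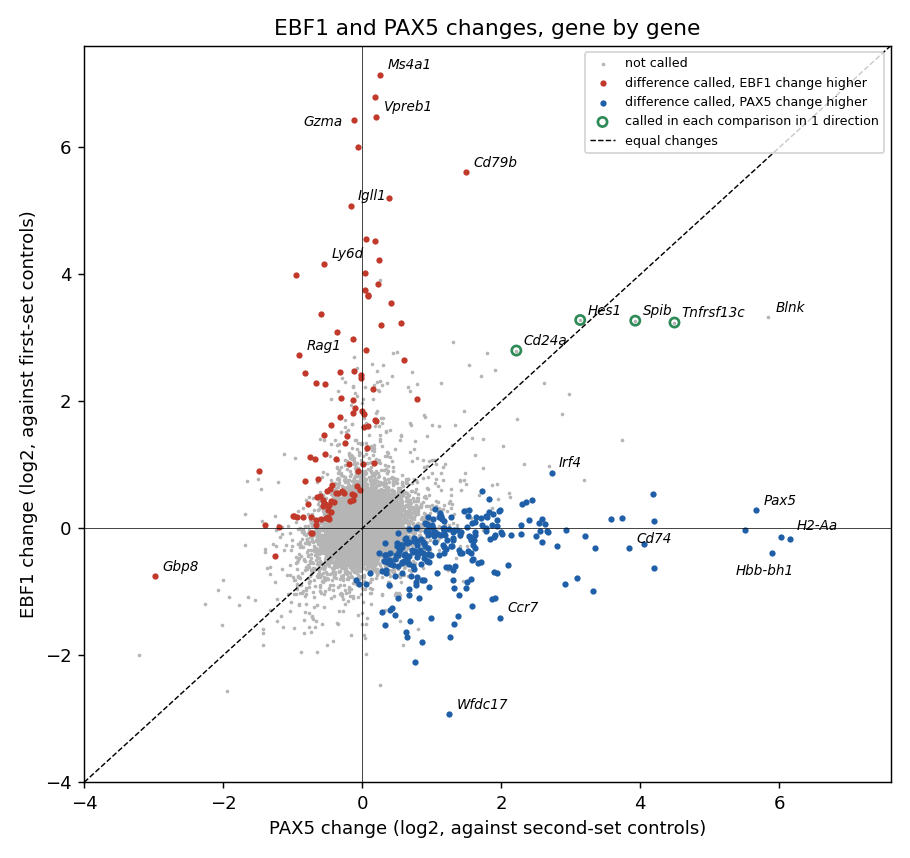
Each of 18193 genes is placed by its PAX5 change (horizontal axis, log2 against second-set controls) and its EBF1 change (vertical axis, log2 against first-set controls). Red and blue points are the 107 and 246 genes whose difference was called, the dashed line marks equal changes, and many called genes lie near an axis, while Spib, Hes1, Tnfrsf13c and Cd24a (green rings) lie near the diagonal.

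Genes of the pre-B-cell receptor and its partners were among those with the largest differences on the EBF1 side. Ms4a1, which encodes the B cell surface protein CD20, read 14.5, 22.4 and 19.3 in the controls of the first set, but 7028, 5494 and 3029 with EBF1. In the second set it read 16.1, 38.2 and 30.7 for controls and 36.4, 33.0 and 37.6 with PAX5, arrays 1 to 3 in order as in all such triplets. The EBF1 arrays stood far above every other array and the PAX5 arrays overlapped their controls, with a difference of 6.89 (SE 0.32, adjusted p = 3.5e-05). Vpreb1 read 6613, 4109 and 2716 with EBF1 against 46.3, 24.8 and 25.0 in controls, and 65.1, 56.9 and 59.9 with PAX5 against 67.2, 45.5 and 44.0. Igll1 read 8918, 5633 and 4084 against 156, 164 and 155, and 336, 378 and 359 against 384, 407 and 399.7. For these surrogate light chain genes the EBF1 change was higher by 6.28 (SE 0.33, adjusted p = 5.9e-05) and 5.25 (SE 0.27, adjusted p = 5.7e-05). The dimmer Igll1 probe set showed a difference of 0.18 that did not pass (adjusted p = 0.64 over all probe sets), and the mean of both sets gave 2.71.

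The signalling chains of the receptor differed less. Cd79b read 2223, 1527 and 523 with EBF1 against 9.56, 11.7 and 6.69 in controls, and 85.0, 92.2 and 83.3 with PAX5 against 23.3, 21.0 and 16.7. All 3 PAX5 arrays also lay above their controls, with a PAX5 change of 1.5 (adjusted p = 0.34) beside an EBF1 change of 5.61, which left a difference of 4.11 (SE 0.49, adjusted p = 0.0051). Cd79a read 633, 234 and 227 with EBF1 against 7.59, 15.5 and 16.5, and 93.4, 97.5 and 97.4 with PAX5 against 67.4, 58.2 and 79.1, a difference of 3.15 (SE 0.38, adjusted p = 0.0057). Both calls were lost without PAX5 array 1 (adjusted p = 0.097 and 0.11). Cd79a controls stood higher in the second set by 1.54 in log2, so its levels cannot be compared across sets, and its difference was 2.07 with a pseudocount of 64.

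Siglecg, an inhibitory sialic acid-binding lectin of B cells, went the other way. It read 940.3, 519 and 544 with PAX5 against 33.6, 34.1 and 48.0 in controls, and 142, 135 and 134 with EBF1 against 121, 112 and 129, a difference of -3.58 (SE 0.22, adjusted p = 0.00014). Of the 17 measured receptor chain and co-receptor genes, 5 had the higher EBF1 change and 1 the higher PAX5 change (35.3% called, against 1.94% of all genes), with a median difference of 0.18 against 0.022 over all genes. Without PAX5 array 1 the counts were 3 and 1. Of the members that did not pass, Ighm, the heavy chain, had a difference of -0.65 (95% interval -1.28 to -0.022, adjusted p = 0.28), the inhibitory receptor gene Cd22 0.60 (95% interval 0.014 to 1.18, adjusted p = 0.28) and Vpreb3 -0.16 (95% interval -0.52 to 0.20, adjusted p = 0.67). The offset of the controls, second set less first, was 2.57 in log2 for Cd22 and -1.33 for Siglecg, so their levels cannot be compared across sets. The list shares given below are likewise to be read against the 1.94% of all genes called. Counts at an unadjusted p under 0.05 are to be read against 17.0% of all genes.

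The windows of 250 bases before the RefSeq start sites (GRCm38.p6) of Vpreb1 and Igll1, at chr16:16869256-16869505 (minus strand) and chr16:16863986-16864235 (minus strand), are shown because these genes had the higher EBF1 change, beside those of 2 class II genes with the higher PAX5 change, H2-Aa at chr17:34287824-34288073 (minus strand) and H2-Eb1 at chr17:34305617-34305866 (plus strand). Capitals mark matches, on either strand, to the core CCCNNGGG of the EBF palindrome or to CTGATTGG, the Y box found in class II promoters.
Vpreb1: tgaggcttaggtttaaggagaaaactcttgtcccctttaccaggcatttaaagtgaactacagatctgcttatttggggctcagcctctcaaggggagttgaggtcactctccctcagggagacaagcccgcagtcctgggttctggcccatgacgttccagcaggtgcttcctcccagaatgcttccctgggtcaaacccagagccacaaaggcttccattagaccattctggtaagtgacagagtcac
Igll1: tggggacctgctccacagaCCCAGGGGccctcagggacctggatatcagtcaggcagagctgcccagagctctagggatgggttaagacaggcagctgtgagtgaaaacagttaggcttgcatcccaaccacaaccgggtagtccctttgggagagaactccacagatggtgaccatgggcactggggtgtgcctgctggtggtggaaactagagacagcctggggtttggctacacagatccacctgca
H2-Aa: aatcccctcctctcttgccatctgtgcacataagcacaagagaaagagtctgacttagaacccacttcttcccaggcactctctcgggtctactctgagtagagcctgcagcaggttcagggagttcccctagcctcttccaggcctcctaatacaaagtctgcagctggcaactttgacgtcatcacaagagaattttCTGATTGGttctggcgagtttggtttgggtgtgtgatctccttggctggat
H2-Eb1: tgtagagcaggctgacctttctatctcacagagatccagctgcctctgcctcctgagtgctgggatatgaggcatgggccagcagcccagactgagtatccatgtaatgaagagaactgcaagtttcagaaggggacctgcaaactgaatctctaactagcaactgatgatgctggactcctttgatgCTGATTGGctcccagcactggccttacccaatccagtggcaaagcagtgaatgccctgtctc
The Igll1 window held 1 core match and these class II windows held the Y box, while the Vpreb1 window held no exact match to either. The class II genes whose windows held no exact match to CTGATTGG were H2-DMa, H2-DMb2 and H2-Ob, while the EBF1-side gene Gzma held it. The H2-DMb2 and H2-Ob windows held GTGATTGG and TTGATTGG, which differ from it in the first letter only. Such near matches were not counted, so absence of a Y box was not shown. The same limit holds for the EBF core. The Vpreb1 window held CCCTCAGGG, which has 1 more base in its middle. The Cd79a window held CTCAAGGG, which differs from the core in 1 letter. Neither was counted, so absence of an EBF site was not shown. The full EBF palindrome, which is this core with a T before it and an A after it, was in none of the 4. Among all 32851 RefSeq windows of 300 bases (250 before and 50 after the start), the core was present in 13.7%, the full palindrome in 0.904% and the Y box in 4.1%. Of 62 named genes 43 had a window. The search in named genes left out the windows of a chromosome that the count over all windows kept, so a missing window need not mean missing annotation. Among the called class II genes, H2-Ab1, Cd74 and Ciita had no window in this search, and the Y box count does not cover them. The core was in 2 of 12 such genes with the higher EBF1 change and 5 of 28 with the higher PAX5 change, and the Y box in 1 of 12 and 3 of 28. A match is a run of letters in this window and no evidence of binding.

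Class II antigen presentation showed the opposite pattern. H2-Aa, which encodes an alpha chain of the class II molecule, read 3846, 2366 and 2244 with PAX5 against 25.4, 28.7 and 24.4 in controls, and 22.1, 24.9 and 42.7 with EBF1 against 32.0, 40.2 and 32.0. H2-Eb1, a beta chain, read 3292, 2501 and 2405 with PAX5 against 35.8, 27.9 and 20.7, and 29.4, 51.2 and 32.6 with EBF1 against 49.7, 36.7 and 41.2. For both genes the EBF1 arrays overlapped their controls while every PAX5 array stood far above, and the differences were -6.32 (SE 0.25, adjusted p = 1.4e-05) and -6.17 (SE 0.21, adjusted p = 1.0e-05). The third chain gene, H2-Ab1, differed by -5.53 (SE 0.20, adjusted p = 1.0e-05). Cd74, the invariant chain that escorts class II molecules, read 6527, 5328 and 5268 with PAX5 against 433, 349.6 and 412, and 474, 914 and 1027 with EBF1 against 1177, 909 and 807, a difference of -4.15 (SE 0.30, adjusted p = 0.00043). Ciita, the transactivator of class II genes, was dimmer, at 309, 272 and 271 with PAX5 against 46.2, 35.8 and 44.2, and 53.5, 48.4 and 57.7 with EBF1 against 53.0, 40.6 and 48.9, a difference of -2.27 (SE 0.14, adjusted p = 0.00014).

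The peptide-loading genes of the class II locus differed by less. H2-DMb2, a chain of the peptide exchange factor, showed a difference of -1.94 (SE 0.17, adjusted p = 0.00096), with a PAX5 change of 2.35 and an EBF1 change of 0.42. H2-DMa, its partner chain, showed -1.86 (SE 0.29, adjusted p = 0.019), and H2-Ob, a chain of the inhibitory partner H2-O, -2.40 (SE 0.37, adjusted p = 0.019). In H2-Ob the EBF1 change was -1.42 and the PAX5 change 0.98, and neither passed alone (adjusted p = 0.16 and 0.44). Of 15 class II genes measured, 8 had the higher PAX5 change and 0 the higher EBF1 change (53.3% called, against 1.94% of all genes). Below an unadjusted p of 0.05 lay 10 of them, against 17.0% of all genes, and the median difference was -1.86. Without PAX5 array 1, 6 were called. The rest of the list included H2-Eb2 at 0.013 (95% interval -0.35 to 0.38, adjusted p = 0.98), H2-Oa at -0.94 (95% interval -1.63 to -0.24, adjusted p = 0.17) and Rfx5, a class II promoter factor, at -0.26 (95% interval -0.76 to 0.24, adjusted p = 0.60).

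**Figure D2:**
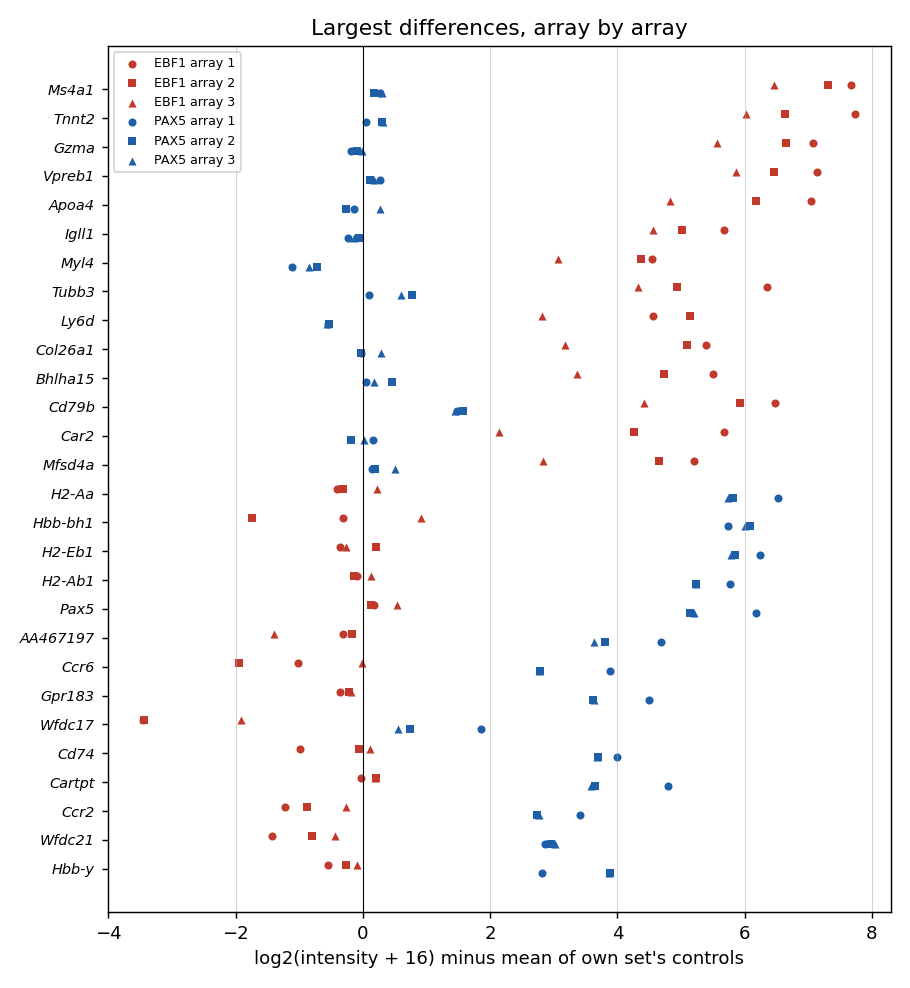
The 14 most positive and 14 most negative differences are shown array by array as log2(intensity + 16) minus the mean of the own set's controls (horizontal axis), with EBF1 arrays in red and PAX5 arrays in blue. The groups are apart for each gene, which follows largely from choosing the genes by this difference. EBF1 array 3 (red triangles) is the lowest of the 3 EBF1 arrays in each of the 14 upper genes.

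Genes better known outside the B lineage were among the largest differences in each direction. With EBF1 higher, Gzma, a protease of cytotoxic lymphocytes, read 8223, 6138 and 2877 with EBF1 against 61.7, 38.2 and 38.9, and 48.4, 53.0 and 56.6 with PAX5 against 68.2, 49.8 and 55.1 (difference 6.54, SE 0.38, adjusted p = 0.00011). Tnnt2, cardiac troponin T, read 4096, 1901 and 1237 against 4.92, 3.80 and 1.46, and 6.31, 10.8 and 10.9 against 6.44, 7.98 and 2.85 (difference 6.62, SE 0.41, adjusted p = 0.00015). The contractile light chain gene Myl4 differed by 4.94 (SE 0.40, adjusted p = 0.00079), and its PAX5 arrays (68.8, 94.6 and 86.0) lay below all of their controls (196, 127 and 186), without passing alone (change -0.95, adjusted p = 0.51). The mean of all probe sets of a gene gave smaller differences, 2.75 for Myl4, 2.39 for Col26a1, 2.46 for Bhlha15 and 2.14 for Mfsd4a. The apolipoprotein gene Apoa4 read 2680.4, 1463 and 564 with EBF1 and 3.14, 1.64 and 9.59 with PAX5, and differed by 6.08 (SE 0.51, adjusted p = 0.00096). The neuronal tubulin gene Tubb3 differed by 4.81 (SE 0.50, adjusted p = 0.0026) and the collagen gene Col26a1 by 4.51 (SE 0.54, adjusted p = 0.0057). Bhlha15, a factor of secretory cells, differed by 4.35 (SE 0.54, adjusted p = 0.0063). The last 3 calls were lost without PAX5 array 1. Car2, carbonic anhydrase 2, read 1117, 412 and 82.1 across the EBF1 arrays, a wide spread, and its difference of 3.99 (SE 0.80, adjusted p = 0.046) was lost under 11 of 21 alternatives and stood at 2.61 with a pseudocount of 64. Mfsd4a, a transporter-like gene, differed by 3.98 (SE 0.59, adjusted p = 0.015), lost without PAX5 array 1, without PAX5 arrays 2 and 3 and without EBF1 array 2. Ly6d, a surface protein that marks B-directed lymphoid progenitors, read 2695, 4077 and 796 with EBF1 against 118, 87.7 and 95.5, and 74.5, 75.3 and 73.5 with PAX5 against 131, 98.8 and 121 (difference 4.72, SE 0.55, adjusted p = 0.0048, lost without PAX5 array 1).

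With PAX5 higher, embryonic globins stood out. Hbb-bh1 read 6682, 8431 and 8054 with PAX5 against 158, 49.7 and 155 in controls, and 75.7, 18.0 and 199 with EBF1 against 139.7, 46.9 and 136 (difference -6.28, SE 0.69, adjusted p = 0.0037, adjusted p = 0.062 without PAX5 array 1). Hbb-y read 341, 731 and 717 against 52.6, 31.0 and 23.8, and 16.6, 23.6 and 28.9 against 47.8, 28.8 and 22.1 (difference -3.65, SE 0.33, adjusted p = 0.0011). Globin probe sets can share sequence between close family members, so the 2 signals may not be separate. The adult globin gene Hba-a1 did not pass, at 0.31 (95% interval -0.20 to 0.82, adjusted p = 0.54). Of 16 erythroid and megakaryocyte genes 3 had the higher PAX5 change and 0 the higher EBF1 change (18.8%; 2 and 1 with the replicate block). The third was Vwf, von Willebrand factor, at -1.46 (SE 0.29, adjusted p = 0.045), a call lost under 14 of 20 alternatives (adjusted p = 0.062 with the replicate block). Its difference shrank to -0.80 with a pseudocount of 64 and to -0.87 without PAX5 array 1. Cartpt, a neuropeptide precursor, read 571, 250.3 and 239 with PAX5 against 7.70, 4.23 and 4.02, and 8.31, 12.8 and 12.4 with EBF1 against 9.88, 7.51 and 9.45 (difference -4.08, SE 0.29, adjusted p = 0.00039, or -2.63 with a pseudocount of 64). AA467197, which the array's annotation gives no other name, differed by -4.82 (SE 0.43, adjusted p = 0.0011). Wfdc21, a whey acidic protein family gene, differed by -3.81 (SE 0.51, adjusted p = 0.0089), lost under 3 of 21 alternatives, PAX5 array 1 left out among them.

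Some receptors that guide lymphocyte movement had the higher PAX5 change. Ccr6, a chemokine receptor of B cells and dendritic cells, read 2193, 1016 and 1002 with PAX5 against 202, 79.9 and 146, and 54.2, 21.2 and 125 with EBF1 against 189, 81.0 and 129.6 (difference -4.32, SE 0.56, adjusted p = 0.0081). Ccr7, the receptor that leads lymphocytes into lymph nodes, read 1109, 693 and 667 against 209, 311 and 136, and 30.4, 80.4 and 83.8 against 186, 292 and 117 (difference -3.39, SE 0.42, adjusted p = 0.0065). In both genes the 3 PAX5 arrays lay above all of their controls and the 3 EBF1 arrays below the mean of theirs. Ccr2, a receptor of monocytes, differed by -3.87 (SE 0.31, adjusted p = 0.00079). Gpr183, an oxysterol receptor that positions B cells, read 582, 310.0 and 315 with PAX5 against 22.3, 1.5 and 12.1, and 6.19, 8.50 and 8.96 with EBF1 against 19.6, 3.38 and 17.2 (difference -4.31, SE 0.32, adjusted p = 0.00051). The Gpr183 difference was -2.81 with a pseudocount of 64 and -2.55 in the mean of its probe sets. S1pr1, needed for exit from lymphoid organs, differed by -1.97 (SE 0.17, adjusted p = 0.00096), and the integrin gene Itga6 by -0.68 (SE 0.11, adjusted p = 0.025). Of 19 chemokine receptor, S1P receptor and integrin genes, Gpr183 not included, 5 had the higher PAX5 change and 0 the higher EBF1 change (26.3%; 5 and 1 with the replicate block), with a median difference of -0.60, and 2 were called without PAX5 array 1. Among those that did not pass, the chemokine receptor gene Cxcr4 differed by -0.86 (95% interval -1.91 to 0.20, adjusted p = 0.40) and Cxcr5 by -0.14 (95% interval -1.10 to 0.81, adjusted p = 0.91).

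B-lineage regulators split between the responses. Irf4 and Irf8 are interferon regulatory factors that act in B cell and dendritic cell development. Irf8 read 5275, 3573 and 3393 with PAX5 against 1804, 955 and 863, and 784, 811 and 475 with EBF1 against 1779.9, 938 and 788, a difference of -2.59 (SE 0.36, adjusted p = 0.012), with neither change passing alone, although the PAX5 change passed with the replicate block (adjusted p = 0.017). Irf4 read 776, 511 and 557 with PAX5 against 90.1, 52.9 and 120.1, and 229, 141 and 111 with EBF1 against 83.4, 49.0 and 106. All 3 EBF1 arrays lay above their controls too, without passing alone (change 0.88, adjusted p = 0.32). The difference of -1.85 (SE 0.34, adjusted p = 0.036) was lost under 8 of 21 alternatives. Pou2af1, the OCA-B coactivator of octamer factors, was higher with EBF1: 272, 88.4 and 55.1 against 7.67, 8.14 and 5.77, and 17.0, 14 and 24.9 with PAX5 against 33.1, 22.3 and 11.1 (difference 2.60, SE 0.49, adjusted p = 0.038, lost under 10 of 21). With pseudocounts of 1 and 64 it was 3.95 and 1.42. The largest difference in this list was that of Pax5 itself, -5.39 (SE 0.27, adjusted p = 5.1e-05), the gene the PAX5 virus carried. With EBF1, Pax5 read 76.1, 73.2 and 102 against 65.0, 54.3 and 78.3 in controls, a change of 0.28 that did not pass (adjusted p = 0.72). The other Pax5 probe set had an EBF1 change of 0.51. Its difference was 0.66 (not called, adjusted p = 0.14 over all probe sets), and the mean of both probe sets gave -2.37.

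Of 24 early B-lineage factors, 1 had the higher EBF1 change and 3 the higher PAX5 change, Pax5 included (16.7%; 2 and 4 with the replicate block), with a median difference of -0.27. Leaving out PAX5 array 1 left 0 and 1. Tcf3, which encodes the E2A proteins, differed by 0.18 (95% interval -0.40 to 0.75, adjusted p = 0.78), and Tcf12, another E protein gene, by 0.08 (95% interval -0.29 to 0.45, adjusted p = 0.86). Ebf1 differed by -0.031 (95% interval -0.37 to 0.31, adjusted p = 0.94). Foxo1, a forkhead activator of recombination genes chosen here after its values were seen, differed by 1.63 (95% interval 0.65 to 2.60, adjusted p = 0.10) and did not pass. Its EBF1 change of 2.94 passed (adjusted p = 0.031) and its PAX5 change of 1.31 did not (adjusted p = 0.34).

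The recombination machinery held 1 gene in each direction. Rag1, which cuts antigen receptor genes, read 3435, 2954 and 1368 with EBF1 against 552, 118 and 623 in controls, and 187, 221 and 213 with PAX5 against 619.8, 129 and 714. The EBF1 arrays lay above all of their controls, and the PAX5 arrays lay within the wide range of theirs. The difference was 3.64 (SE 0.65, adjusted p = 0.033), while neither change passed alone, and it was lost under 8 of 21 alternatives. Polm, a polymerase of DNA end joining, was higher with PAX5 (difference -1.69, SE 0.26, adjusted p = 0.019, lost under 4 of 20, and -0.95 with a pseudocount of 64). Rag2, the partner of Rag1, differed by -0.63 (95% interval -2.17 to 0.90, adjusted p = 0.69). Of 12 genes in the list these were the 2 called (16.7%; 3 with the replicate block), and 0 were called without PAX5 array 1.

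Of 22 B cell receptor adaptors and kinases, 3 had the higher PAX5 change and 0 the higher EBF1 change (13.6%, against 1.94% of all genes). With the replicate block these counts were 5 and 0. Below an unadjusted p of 0.05 lay 14 of the 22, against 17.0% of all genes, and the median difference was -0.52. Syk, the kinase that starts receptor signalling, read 2813, 2046 and 2076 with PAX5 against 1571, 1522 and 1517, and 1061, 963 and 1096 with EBF1 against 1544, 1523 and 1471. The PAX5 arrays lay above and the EBF1 arrays below all of their controls, with a difference of -1.18 (SE 0.15, adjusted p = 0.0076) and neither change passing alone. Cblb, a ubiquitin ligase that restrains receptor signals, differed by -1.10 (SE 0.18, adjusted p = 0.024), and the adaptor gene Sh3bp2 by -0.88 (SE 0.17, adjusted p = 0.040). These were lost under 6 and 10 of 21 alternatives, and 0 genes of the list were called without PAX5 array 1. Blnk, the adaptor downstream of Syk, lay above all of its controls in each response, at 4877, 3639 and 3351 with PAX5 against 116, 29.8 and 47.0, and 1195, 943 and 233 with EBF1 against 104, 26.8 and 39.5. Its difference of -2.51 (95% interval -4.02 to -1.0, adjusted p = 0.10) did not pass. The kinase genes Btk and Fyn stood at -0.66 (95% interval -0.97 to -0.35, adjusted p = 0.053) and -0.57 (95% interval -0.98 to -0.17, adjusted p = 0.15).

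A further group was called for the difference although it passed in neither comparison with controls. In the 129 such genes with the higher PAX5 change, the median EBF1 change was -0.50 and the median PAX5 change 0.75, and in the 74 with the higher EBF1 change these medians were 0.65 and -0.44. Picking genes this way favours moderate changes of opposite sign, so the opposite medians follow in part from the choice. Single genes of natural killer cells, myeloid cells and progenitors were in this group. Klrd1, a natural killer receptor chain, read 626, 437 and 380.2 with PAX5 against 368, 137 and 157, and 20.1, 27.9 and 118 with EBF1 against 336, 123 and 134 (difference -2.97, SE 0.58, adjusted p = 0.043). Nkg7, a granule protein, read 1505, 911 and 865 against 514, 385 and 264, and 102, 96.0 and 309 against 512, 389 and 239.7 (difference -2.81, SE 0.48, adjusted p = 0.027). EBF1 array 3 read highest of the EBF1 arrays for both genes, and within the range of the controls for Nkg7. That array also held the most stromal transcript (median log2 difference 1.41), whose part in this was not tested. The calls of Klrd1 and Nkg7 were lost under 12 and 8 of 21 alternatives, that of Klrd1 also with the replicate block (adjusted p = 0.054). Of 20 natural killer and innate lymphoid genes these were the 2 with the higher PAX5 change, beside Gzma with the higher EBF1 change (15%; 1 and 1 with the replicate block), and leaving out PAX5 array 1 left 0 and 1. Ncr1, a defining natural killer receptor gene, averaged 24.3 to 38.6 in the 4 groups.

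Wfdc17, a macrophage-associated whey acidic protein gene, read 35.3, 36.0 and 134 with EBF1 against 1480.2, 332 and 324, and 1991, 910.1 and 798 with PAX5 against 1401, 328 and 336, a difference of -4.18 (SE 0.72, adjusted p = 0.027) that was lost under 7 of 21 alternatives. Itgam, the CD11b integrin chain of myeloid cells, differed by -2.14 (SE 0.33, adjusted p = 0.019) and was with Ccr2 called among 24 myeloid genes (8.33%; 3, and 1 with the higher EBF1 change, with the replicate block), leaving 1 without PAX5 array 1. Itgax, the CD11c chain of dendritic cells, differed by -1.96 (SE 0.22, adjusted p = 0.0040). With Ccr7 it was called with the higher PAX5 change among 12 genes of a list for dendritic cells, which also holds Ly6d, called with the higher EBF1 change (25%), and 0 of them were called without PAX5 array 1. The other myeloid markers were uneven in level. Lyz2 averaged 65.5 to 91.7 in the 4 groups and differed by -0.085 (95% interval -0.41 to 0.24, adjusted p = 0.82). Elane averaged 1.93 to 13.5, and Mpo 1190 and 1213 in controls, 381 with EBF1 and 401 with PAX5. Csf1r averaged 33.0 and 43.5 in the first set but 505 and 491 in the second, an offset between sets.

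Among progenitor genes, Lmo2, a LIM-domain bridge of blood transcription factors, read 1958, 1429 and 1449 with PAX5 against 1209, 823 and 899, and 521, 475 and 625 with EBF1 against 1179.7, 809 and 828 (difference -1.56, SE 0.21, adjusted p = 0.0098). Hhex, a homeobox factor of early lymphoid cells, differed by -1.40 (SE 0.20, adjusted p = 0.012). In Lmo2 every PAX5 array lay above and every EBF1 array below all controls of its set. These were the 2 of 22 stem and progenitor genes called (9.09%; 4 with the replicate block), with a median difference of -0.26, and neither was called without PAX5 array 1. Cd34, a stem and progenitor surface protein, had an EBF1 change of -1.46 and a PAX5 change of 0.54, and its difference of -2.0 (95% interval -3.18 to -0.83, adjusted p = 0.097) did not pass. The stem cell factor receptor gene Kit stood at -1.51 (95% interval -2.85 to -0.16, adjusted p = 0.24).

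**Figure D3:**
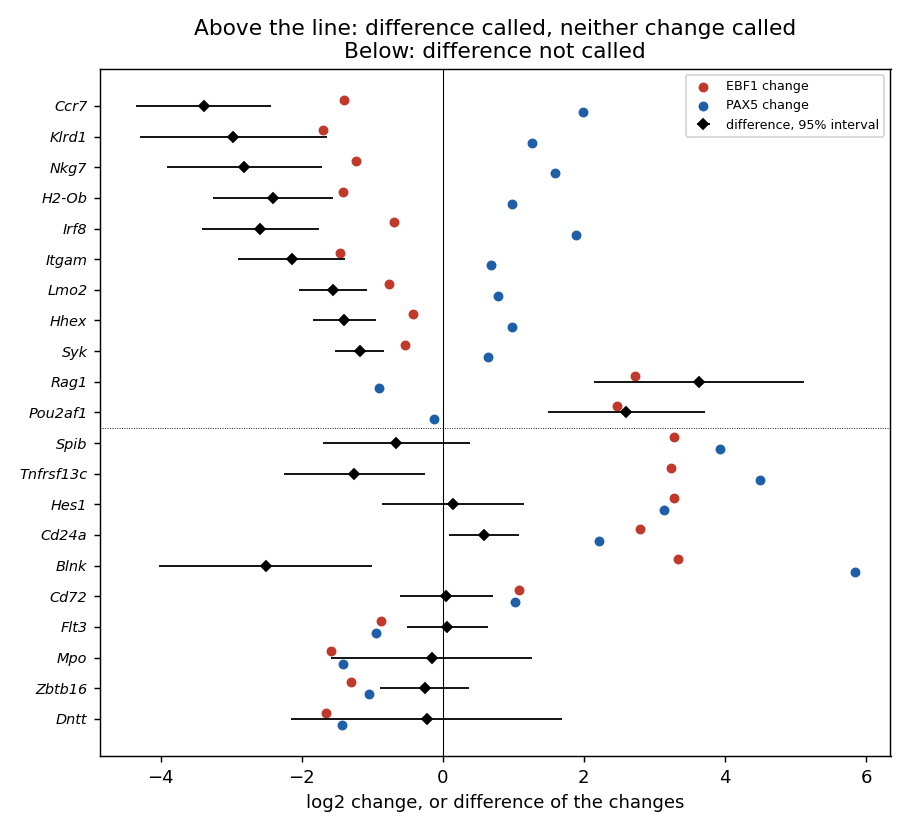
Log2 EBF1 changes (red) and PAX5 changes (blue) with their difference and its 95% interval (black) are shown for 21 genes. Above the dotted line the difference was called although neither change was (with the replicate block, the PAX5 changes of Irf8 and Hhex were), from Ccr7 at -3.39 to Rag1 at 3.64; below it the difference was not called, and the intervals of Mpo and Dntt are the widest that include 0.

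Some genes rose with each factor. Spib, an Ets-family factor of B cells, read 726, 898 and 259 with EBF1 against 61.9, 33.9 and 37.2 in controls, and 1681, 1130.1 and 1268 with PAX5 against 103, 76.1 and 60.4. It rose in each comparison, by 3.27 (adjusted p = 0.027) and 3.93 (adjusted p = 0.0063), and the difference was -0.66 (95% interval -1.70 to 0.39, adjusted p = 0.52). Hes1, a repressor downstream of Notch, read 903, 604 and 273 with EBF1 against 40.4, 49.9 and 32.3, and 745, 412 and 403 with PAX5 against 48.6, 58.1 and 40.3. Its rises of 3.28 (adjusted p = 0.023) and 3.14 (adjusted p = 0.016) differed by 0.15 (95% interval -0.86 to 1.15, adjusted p = 0.91). For these genes the interval admits a difference of about 1 or more in log2 in at least 1 direction, so equality was not shown.

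Cd24a and Tnfrsf13c rose in each comparison too, with intervals that exclude 0 but adjusted p-values that did not pass. Cd24a, the heat-stable antigen used to stage B cell precursors, read 10029, 9651 and 7706 with EBF1 against 1017, 1751 and 1197, and 6472, 6943 and 6439.8 with PAX5 against 1125, 1850.1 and 1324. Its rises of 2.80 and 2.22 differed by 0.58 (95% interval 0.085 to 1.08, adjusted p = 0.22). Tnfrsf13c, the receptor for the survival factor BAFF, read 820.1, 522 and 258 with EBF1 against 42.2, 56.6 and 18.4, and 1550.4, 1190.3 and 1100.0 with PAX5 against 48.8, 60.3 and 27.5. Its rises of 3.24 and 4.49 differed by -1.25 (95% interval -2.26 to -0.25, adjusted p = 0.20). Spib, Hes1, Cd24a and Tnfrsf13c are the genes that the naming rule takes as called in each comparison in 1 direction, and the shared controls enter both changes. Of 16 BAFF, CD40 and toll-like receptor genes, Tnfrsf13c included, 0 passed for the difference by limma (1 with the replicate block) and 8 lay below an unadjusted p of 0.05. Over all genes 1.94% passed and 17.0% lay below that unadjusted p.

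The 250 bases before the Spib start, at chr7:44532072-44532321 (minus strand) in GRCm38.p6, are given as the window of a gene that rose in each comparison, with capitals marking 2 overlapping matches to CCCNNGGG.
Spib: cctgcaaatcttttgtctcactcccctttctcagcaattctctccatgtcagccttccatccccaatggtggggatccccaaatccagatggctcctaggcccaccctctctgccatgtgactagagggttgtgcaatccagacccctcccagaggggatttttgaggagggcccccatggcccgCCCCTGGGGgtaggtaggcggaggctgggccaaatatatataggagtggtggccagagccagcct

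Changes of like size were also measured for several genes that passed in neither comparison. They were grouped here by their measured changes, so their likeness follows from that choice. Flt3, the receptor of Flt3 ligand, read 1028, 1299 and 1709 with EBF1 against 2927, 1823 and 2672, and 1328, 1178 and 1168 with PAX5 against 2870.0, 1822 and 2672. All EBF1 and PAX5 arrays lay below all of their own controls, and the difference was 0.067 (95% interval -0.51 to 0.64, adjusted p = 0.93). Zbtb16, a factor of innate lymphoid precursors, read 203, 359 and 422 against 925, 829 and 656, and 397, 381 and 389 against 953, 834 and 695, a difference of -0.26 (95% interval -0.89 to 0.37, adjusted p = 0.70). Cd72, a B cell co-receptor, had an EBF1 change of 1.08 and a PAX5 change of 1.03, with a difference of 0.052 (95% interval -0.61 to 0.72, adjusted p = 0.95). Mpo, myeloperoxidase, and Dntt, terminal transferase, had wider intervals, -0.16 (95% interval -1.58 to 1.26, adjusted p = 0.93) and -0.23 (95% interval -2.15 to 1.69, adjusted p = 0.92), and their controls spread widely (754, 58.8 and 119.9 for Dntt in the first set).

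Notch and T-lineage genes held a conflict between probe sets. Dtx1, a Notch pathway ubiquitin ligase, has 2 probe sets. The brighter read 824, 607 and 697 with PAX5 against 195, 218 and 146, and 248, 199 and 205 with EBF1 against 222, 250 and 233, a difference of -2.01 (SE 0.16, adjusted p = 0.00079). The dimmer read 178, 146 and 69 with EBF1 against 17.5, 25.9 and 34 in controls, and 82.2, 76.4 and 90.9 with PAX5 against 82.6, 80.9 and 88.7, a difference of 1.77 (adjusted p = 0.0375 over all probe sets). In the mean of the probe sets the difference was -0.12 (adjusted p = 0.81), so no direction is given for Dtx1. The dimmer probe set also read higher in the second-set controls than in the first, where the brighter did not. Cd5, a surface regulator of T and B cells, differed by -1.10 (SE 0.19, adjusted p = 0.025), lost under 7 of 21 alternatives. Of 22 genes in the list 3 were called (13.6%): Rag1, also counted above, Cd5, and Dtx1, whose direction rests on the choice of probe set. Without PAX5 array 1 the brighter Dtx1 probe set alone was called, and with the replicate block 5 genes were. Notch1 itself stood at 0.87 (95% interval 0.26 to 1.47, adjusted p = 0.15).

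In 3 lists a single member was called without the replicate block, in a fit that called 1.94% of all genes. Gbp8, a guanylate-binding protein, read 38.6, 41.0 and 37.7 with PAX5 against 603, 505 and 234, and 266, 284 and 137 with EBF1 against 557, 481 and 201. It fell with PAX5 (change -2.98, adjusted p = 0.015) and the difference was 2.22 (SE 0.41, adjusted p = 0.037), lost under 8 of 21 alternatives; it was 1 of 18 interferon-stimulated and guanylate-binding genes (5.56%; with the replicate block 1 more was called, on the PAX5 side). Bmf, a pro-apoptotic member of the Bcl2 family, was the 1 of 13 called there (7.69%), at -1.56 (SE 0.30, adjusted p = 0.040), lost under 10 of 21 and -0.94 in the mean of its probe sets. Klf2, a factor of lymphocyte quiescence and trafficking, was the 1 of 18 immediate-early genes (5.56%; 3, and 1 with the higher EBF1 change, with the replicate block), at -1.82 (SE 0.32, adjusted p = 0.031), lost under 7. The last list was uneven across PAX5 arrays, with a median log2 difference from controls of 0.75, 0.23 and 0.25 in arrays 1, 2 and 3, against 0.40, 0.22 and 0.083 in EBF1 arrays. Fos and Jun, the AP-1 subunits, had differences of -2.43 (95% interval -3.86 to -1.0, adjusted p = 0.097) and -1.72 (95% interval -3.10 to -0.33, adjusted p = 0.20), which did not pass. PAX5 array 1 is also the array without which most calls were lost, and the part of this list in those calls was not tested.

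**Figure D4:**
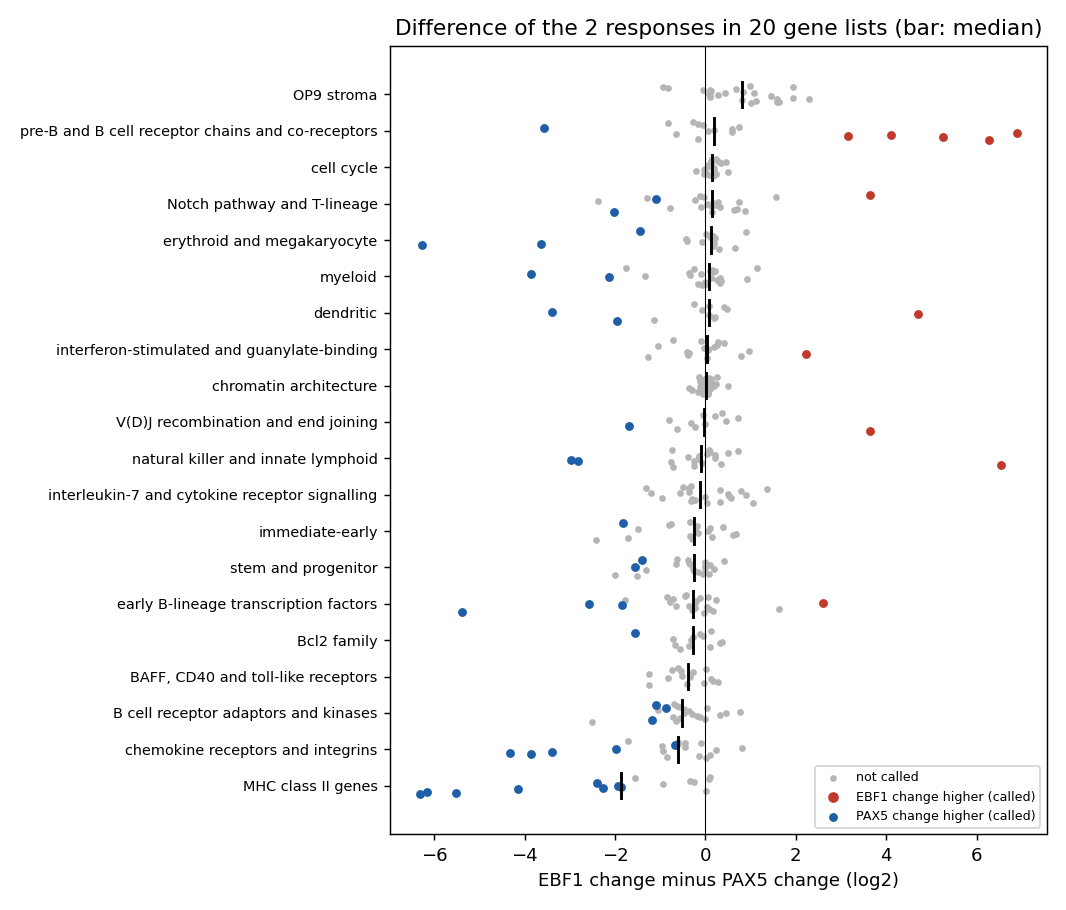
Each point is the EBF1 change minus the PAX5 change (log2, horizontal axis) of a measured gene in 1 of 20 lists, with a bar at each list's median. Called genes lie mostly left of 0, all 8 of the class II list among them (median -1.86), while the receptor chain list holds called genes on both sides.

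No gene of the proliferation and chromatin lists was called for the difference. Over all genes 1.94% were called, so a list of this size would hold few calls or none in any case. At an unadjusted p under 0.05 lay 17.0% of all genes. Of 24 cell cycle genes 0 passed by limma and 1 lay below an unadjusted p of 0.05, with differences from -0.22 to 0.49. Mki67, the Ki-67 antigen, differed by 0.16 (95% interval -0.35 to 0.66, adjusted p = 0.78) and Top2a, topoisomerase II, by 0.069 (95% interval -0.27 to 0.41, adjusted p = 0.86). Of 27 chromatin architecture genes 0 passed and 2 lay below an unadjusted p of 0.05, with differences from -0.36 to 0.50. Ctcf, the insulator protein, differed by -0.051 (95% interval -0.38 to 0.28, adjusted p = 0.90), and the cohesin subunit genes Smc1a, Smc3 and Rad21 by 0.046 (95% interval -0.35 to 0.45, adjusted p = 0.93), 0.047 (95% interval -0.25 to 0.34, adjusted p = 0.90) and -0.10 (95% interval -0.45 to 0.25, adjusted p = 0.80). Of 22 interleukin-7 and cytokine receptor genes 0 passed by limma (1 with the replicate block) and 9 lay below an unadjusted p of 0.05. Il7r, the interleukin-7 receptor chain, had an EBF1 change of 0.11 and a PAX5 change of -0.95, and its difference of 1.05 (95% interval -0.068 to 2.18, adjusted p = 0.33) was not resolved.

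Stromal transcripts, which the OP9 feeder cells would carry, were uneven across the EBF1 arrays. The median log2 difference of 24 stromal genes from controls stood at 0.42 in EBF1 array 1, -0.089 in array 2 and 1.41 in array 3. The PAX5 arrays stood at -0.055, 0.20 and 0.25. Their summed intensity was 5628, 4935 and 18870 in the EBF1 arrays against 5962 to 6880 in controls, and 7040 to 8419 in PAX5 arrays against 6429 to 7410. The median difference of the list was 0.82, with 0 genes passing by limma and 5 below an unadjusted p of 0.05. The shares over all genes were 1.94% and 17.0%. Col1a2, a collagen chain, read 542, 97.8 and 2018 in the EBF1 arrays. Stromal markers did not all move alike. Bgn, Fn1 and Sparc averaged 1256, 842 and 228 with EBF1 against 210, 141 and 25.3 in first-set controls. Pdgfrb averaged 355 against 441. Thy1, Dcn and Lum changed little, at 1118, 9.28 and 22.0 against 1010, 5.95 and 18.5. How far each marker reports feeder cells was not tested. EBF1 array 3 was also the lowest of the EBF1 arrays in each of the 14 largest EBF1-side differences. Without it, 575 genes were called, 307 of them among the 353, with 5 receptor chain genes still on the EBF1 side and 8 class II genes on the PAX5 side.

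**Figure D5:**
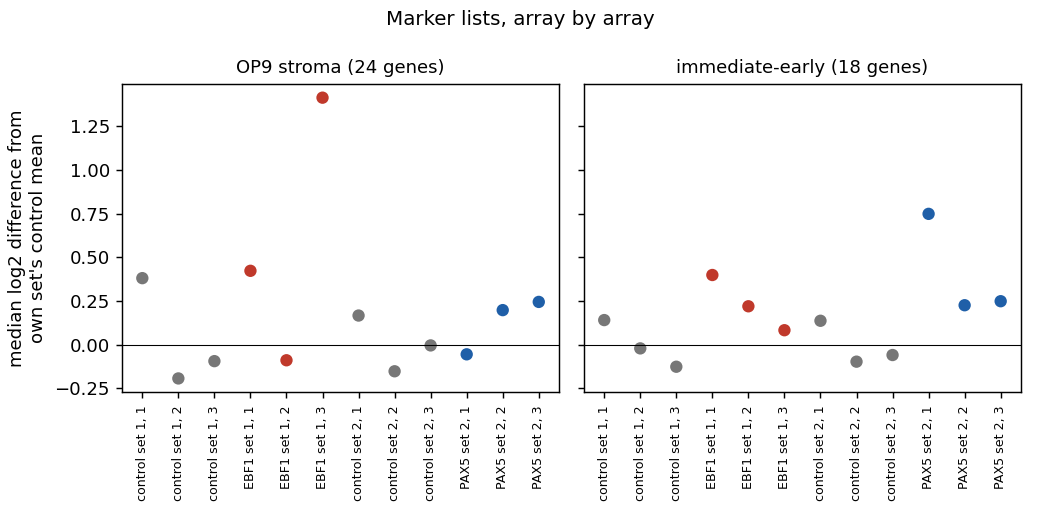
The median log2 difference from the own set's control mean (vertical axis) is shown for 24 stromal and 18 immediate-early genes in each of the 12 arrays (controls grey, EBF1 red, PAX5 blue). EBF1 array 3 stands apart in the stromal list at 1.41 and PAX5 array 1 is highest in the immediate-early list at 0.75.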

How the data were processed

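RNA of 12 samples in 4 groups was measured on Affymetrix arrays, 3 arrays a group. The values are the deposited summarised intensity of each probe set on a linear scale. The labels do not say how the authors summarised and normalised these intensities. Of 45037 probe sets, 34945 have 1 gene symbol in the platform annotation, 932 have several and 9160 have none. The brightest probe set stood for each gene, which gave 18193 genes, on log2(intensity + 16), a scale that understates changes of dim genes.

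Arrays whose robust SD of log2 difference over bright probe sets (mean log2 of 8 or more) was under 0.15 were counted as 1 sample. The offset of each gene between the control sets was removed first. limma 3.58.1 (lmFit and eBayes, R 4.3.3) was fitted to 3 control, 3 EBF1 and 2 PAX5 samples, with 5 residual and 3.53 prior degrees of freedom. All p-values were adjusted by Benjamini-Hochberg over all genes, with a threshold of 0.05. The fit was tested on simulated data first.

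Genes were named as the 14 most positive and 14 most negative called differences, the called members of 20 gene lists with up to 4 members that did not pass from the start of each list, up to 12 genes called in each comparison in 1 direction, and the transduced genes. The lists (378 of 422 genes measured) and the comparison were chosen with earlier results of these data known. The alternatives were other ways of counting arrays, the replicate block, other pseudocounts, filters, probe set rules, scalings and priors, and leaving out each array. Promoter sequences come from RefSeq (GRCm38.p6).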

Additional observations from a re-analysis of the deposited data

Results flagged for a closer look

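Probe sets that the annotation ties to several genes or to none took no part in the comparisons by gene. Of 10092 such probe sets, 57 (0.565%) were called for the difference in a limma fit over all probe sets, 24 with the higher EBF1 change and 33 with the higher PAX5 change, against 416 of 34945 (1.19%) with 1 symbol. They were listed because they show a difference in data that the gene comparisons leave out. Among those with the largest values, 1 probe set on the EBF1 side had a difference of 4.89 (EBF1 change 4.66, PAX5 change -0.23) and 1 on the PAX5 side had -4.84 (EBF1 change 0.38, PAX5 change 5.22). The second Dtx1 probe set, also left out by the choice of the brightest, had a difference of 1.77, opposite in sign to that of the first.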

How the results depend on the processing

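Across 21 alternatives, 21 of the 57 named genes called for the difference kept their call under every one, 36 lost it under at least 1, and none changed sign. Sizes moved more: 15 of the 57 differed by over 1.5 times from the value given under at least 1 alternative, 9 of them in the mean of probe sets and 7 with a pseudocount of 64. The 5 named genes not called stayed so. The number of genes called is less stable than their direction. Beside 353 (107 with the EBF1 change higher, 246 with the PAX5 change higher), counting all 12 arrays separately gave 156 (38 and 118), and counting only the PAX5 arrays separately gave 879 (359 and 520). A pseudocount of 1 gave 194 (66 and 128), and one of 4 gave 163 with the PAX5 change higher. Leaving out 1 array or repeat pair in turn gave 55 to 575 in all, 8 to 258 with the EBF1 change higher and 47 to 317 with the PAX5 change higher. Without PAX5 arrays 2 and 3 the counts were 167 (31 and 136). Adding the error of the set offset, an alternative chosen after seeing the data, gave 287. The replicate block, with each hybridisation once, gave 622 (252 and 370; 316 shared with the 353), lost Klrd1 (adjusted p = 0.054) and Vwf (adjusted p = 0.062), and with all 12 arrays it gave 207 (55 and 152). Deviations of equal-numbered samples correlated, over bright probe sets, at 0.35, 0.61 and 0.39 (control and EBF1), 0.41, 0.19 and 0.33 (control and PAX5) and 0.13, 0.16 and 0.15 (EBF1 and PAX5), and each sample correlated best with its own number. Over all genes, 2 of the 9 fell under 0.1, at 0.082 and 0.0082, both with PAX5 array 2. The control and EBF1 values over all genes were 0.21, 0.40 and 0.22. Whether the number pairs PAX5 array 2 thus depends on the probe sets used, and the labels do not say whether any samples are paired. With 2 PAX5 and 3 EBF1 samples, small differences may be missed.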

Other observations

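Several genes outside the lists were called for the difference although neither change was called alone; they were chosen after their values were seen. Xdh, xanthine dehydrogenase, read 514, 460.1 and 84.6 with EBF1 against 8.93, 17.3 and 10.9 in controls, and 2.93, 6.38 and 14.2 with PAX5 against 12.9, 27.3 and 13.7, a difference of 3.97 (SE 0.62, adjusted p = 0.020). Its EBF1 arrays lay above all of their controls and array 3 was the lowest of them. Cyp26a1, which breaks down retinoic acid, read 347, 812 and 103 with EBF1 against 20.6, 20.9 and 27.1 in controls, and 6.61, 21.7 and 29.2 with PAX5 against 24.7, 23.2 and 21.6, a difference of 3.45 (SE 0.66, adjusted p = 0.040). Gadd45g, a stress-response gene, differed by 2.94 (SE 0.57, adjusted p = 0.040).

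On the PAX5 side, Ccl3, a chemokine of myeloid and lymphoid cells, read 409, 292 and 1322 with EBF1 against 3542, 1469 and 2620.4 in controls, and 4193, 3928 and 3913 with PAX5 against 3502, 1484 and 2631, a difference of -2.86 (SE 0.58, adjusted p = 0.048). Chst11, a chondroitin sulfotransferase, differed by -2.99 (SE 0.44, adjusted p = 0.015), and Grk3, a kinase of G protein-coupled receptors, by -2.81 (SE 0.41, adjusted p = 0.014). For Bach2, a list member that encodes a transcriptional repressor active in B cells, the EBF1 change was -0.27 and the PAX5 change 1.51. Its difference of -1.78 (95% interval -2.62 to -0.95, adjusted p = 0.051) did not pass.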
